A study of Mus musculus with 24 samples.

Results

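The difference between the effect of losing the retinoblastoma gene Rb1 in myotubes and the effect of losing it in myoblasts was measured across 14331 genes in primary mouse skeletal muscle cultures. For each gene it was the level in MCK-cre Rb-flox myotubes minus that in wild-type myotubes, from which the level in Rb-null myoblasts minus that in wild-type myoblasts was subtracted. All 12 cultures of the series entered it, each hybridised once to an MOE430A and once to an MOE430B Affymetrix array, so that 24 of 24 arrays were used. A positive difference means that the effect of Rb loss was more positive in myotubes than in myoblasts, and a gene was called where its limma p, adjusted by Benjamini-Hochberg over all genes, was under 0.05. Signals of single cultures are MAS5 intensities, while effects and differences are on the log2 scale after a small offset, with their standard error (SE). Of the 14331 genes, 9143 were read on MOE430A and 5188 on MOE430B, and 324 were called.

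The 4 groups held 3 cultures each. MCK-cre Rb-flox myotubes (cultures J, K and L) carried Rb alleles flanked by loxP sites and a Cre transgene named for the promoter of muscle creatine kinase (MCK), a gene switched on as muscle cells differentiate. The loss of Rb in them therefore follows the start of differentiation and depends on how many cells turned Cre on. Wild-type myotubes (G, H and I) were the controls, and per the labels both sets came from 3 independent cell lines each and were harvested on day 6 in DMEM with 5% horse serum. Rb-null myoblasts (D, E and F), which the labels describe as defective in differentiation, and wild-type myoblasts (A, B and C) derived from satellite cells and were grown in Ham's F-10 with 20% fetal bovine serum and bFGF as biological triplicates. Rb was thus lost by different means in the 2 states, and genotype, cell state, medium and cell line source all enter the difference. The labels put the purity at 99 to 100%. Adjusted p-values weigh each difference against the spread between cultures within groups, pooled over the 4 groups. That spread joins the cell lines of the myotubes with the biological triplicates of the myoblasts.

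The retinoblastoma protein binds E2F transcription factors and holds back the genes they drive, among them those of DNA replication and mitosis, until cyclin-dependent kinases phosphorylate it. In muscle it is known for its part in the permanent withdrawal from the cell cycle when myoblasts fuse to form myotubes, and for its cooperation with the myogenic factor MyoD in the expression of late muscle genes. Its relatives p107 and p130, encoded by Rbl1 and Rbl2, share some of these roles.

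The cultures carried the markers of their labels. Desmin (Des), the muscle intermediate filament, gave signals of 25213, 54638 and 20048 in Rb-flox myotubes, against 46549, 48537 and 40976 in wild-type myotubes. In myoblasts Des gave 13311, 12228 and 6773 in Rb-null myoblasts, against 12387, 9622 and 10998 in wild-type myoblasts, and Myod1, the transcription factor that commits cells to muscle, gave 42284, 31108 and 33642 in Rb-null myoblasts, against 38493, 49161 and 40327 in wild-type myoblasts. Ckm, muscle creatine kinase, whose promoter also drove the Cre, gave 6607, 4897 and 4299.9 in Rb-flox myotubes, against 52372, 47676 and 28162 in wild-type myotubes, and 2304, 3153 and 573 in Rb-null myoblasts, against 2122, 1587 and 828 in wild-type myoblasts. Every Rb-flox culture was thus below every wild-type myotube culture in Ckm and above every myoblast culture. The intensities are whole-culture averages, so fewer cells of a type and less RNA per cell cannot be told apart.

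Some technical measures moved with the groups. The 3 wild-type myotube arrays and the 3 Rb-flox myotube arrays of MOE430A were run on different fluidics stations, and all myotube arrays were scanned on the same day as wild-type myoblast culture B but not with the other 5 myoblast cultures. Culture B also stood apart from the other myoblasts in 18S ribosomal RNA, at 7903 on MOE430A, where the lowest wild-type myoblast array was at 199. Rb-null myoblasts ranged from 263 to 311, but Rb-flox myotubes from 5394 to 11786 and wild-type myotubes from 6804 to 11502. Spike-in signal on MOE430A averaged 22388 in Rb-flox and 25673 in wild-type myotubes, against 4639 in Rb-null and 10070 in wild-type myoblasts. Both measures thus moved with state. The 3' to 5' signal ratio of Actb, a sign of RNA integrity and of how far cDNA synthesis ran, averaged 0.879 ± 0.0794 in Rb-flox myotubes and 0.533 ± 0.0962 in wild-type myotubes, against 1.02 ± 0.0533 in Rb-null myoblasts with 1.10 ± 0.0626 in the wild type (MOE430A, SD, n = 3 each). Its difference between the genotype effects was 0.425 (exact permutation of genotype labels within each state over 400 arrangements, two-sided p = 0.01, adjusted p = 0.1 over 10 array measures), while that of the Gapdh ratio was -0.00567 (exact permutation p = 0.905, adjusted p = 0.905). With station as a block, the MOE430B array of culture L, whose station is not recorded, was left out, and on MOE430A the adjustment came from the myoblast cultures alone. The part of these measures in the results below was not tested beyond the values given with scan day or station as a block and without culture B.

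Rb1 itself (chr14:73192858-73325951, GRCm38.p6) was lower where it was lost in each state. Its signal was 685, 802 and 589.8 in Rb-flox myotubes, against 3664, 3265 and 3314 in wild-type myotubes, and in myoblasts it was 428, 712 and 259.7 in Rb-null myoblasts, against 2879, 1439.7 and 1579 in wild-type myoblasts. No culture that had lost Rb overlapped with the wild-type cultures of its state. The Rb effect on Rb1 was -2.11 in myotubes (adjusted p = 0.000723) and -1.82 in myoblasts (adjusted p = 0.154), on the log2 scale, and their difference was -0.29 ± 0.43 (SE, adjusted p = 0.845), with a 95% interval of -1.22 to 0.63. Where the 1 probe set of Rb1 lies relative to the deleted exon was not determined. Of the 59 other genes tested within 5 Mb of Rb1 on chromosome 14, the nearest, Lpar6, Rcbtb2, Cysltr2 and Itm2b, had differences of -0.10, 0.14, 0.13 and 0.57, and none of the 59 was called. Over all genes 1.51% were called higher and 0.747% lower, so the absence of calls is not read as a trait of this region.

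Across all genes, 217 were called with a positive difference, 1.51% of those tested, and 107 with a negative one, 0.747%. The median difference over all genes was 0.03 on the log2 scale, and the called genes differed by at least 0.88, with a median size of 2.06. The median SE of the difference was 0.40. The Rb effect within myotubes was called higher for 1007 genes (7.03%) and lower for 643 genes (4.49%), while within myoblasts no gene was called (0%) by limma, with 750 genes at an unadjusted p under 0.05. Of the 324 called genes, 314 also had a called effect within myotubes, which shares its 6 cultures with the difference, and 1336 genes had a called effect within myotubes but no called difference.

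Most called genes had a myoblast effect near 0, but the share of all genes that did so was not computed. Over all genes the median myoblast effect was -0.009, with a median SE of 0.28 for a single Rb effect. The counts within 0.5 of 0 are thus not read as a trait of the called genes. Among the 217 positive genes the median Rb effect was 1.98 in myotubes and 0.11 in myoblasts, and the myoblast effect lay within 0.5 of 0 for 147 of them. Among the 107 negative genes the medians were -1.72 in myotubes and 0.27 in myoblasts, and 73 lay within 0.5 of 0 in myoblasts. The myotube groups did not overlap for 215 of the 217 and for 107 of the 107, where 27.9% of all genes tested had myotube groups that did not overlap. The genes were called on a difference that holds these same myotube cultures, which favours separated groups. These counts are thus a description and no support for the calls. The plot of the Rb effects against each other shows the called genes strung along the vertical axis.

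**Figure D1:**
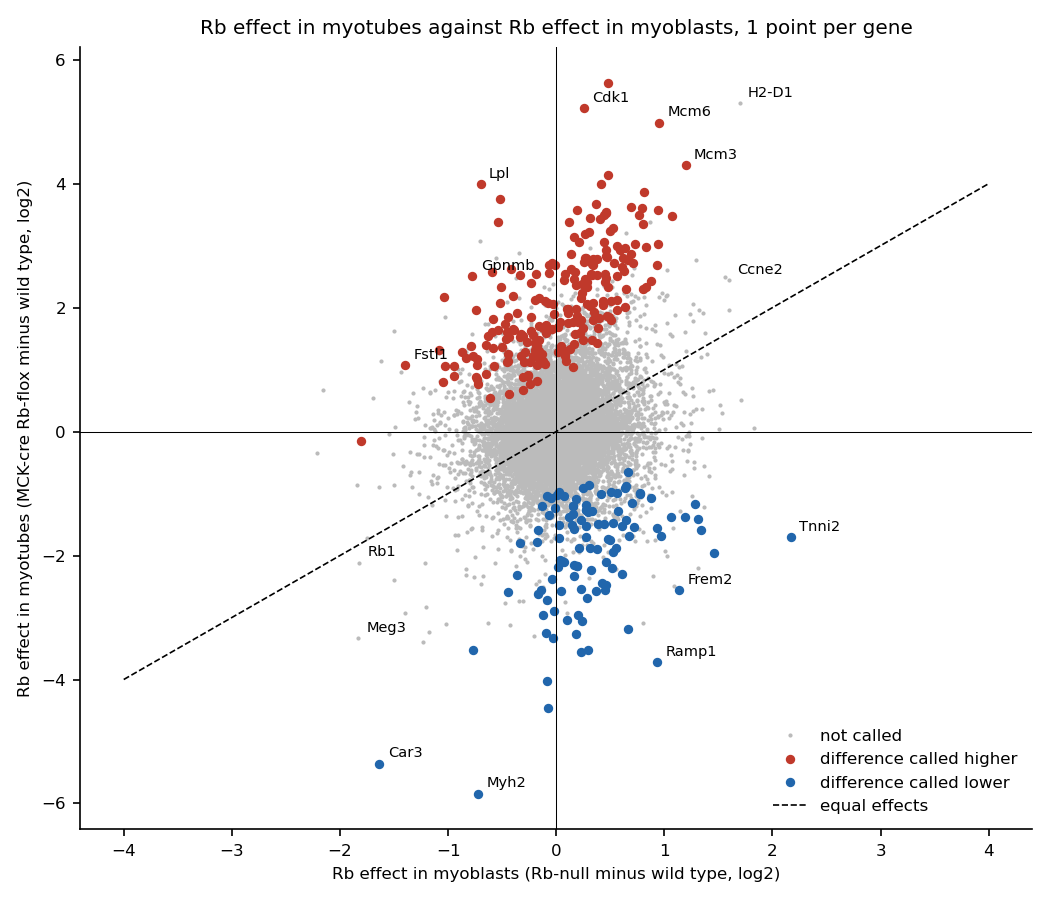
Rb effect in myotubes (vertical axis, MCK-cre Rb-flox minus wild type, log2) against Rb effect in myoblasts (horizontal axis, Rb-null minus wild type, log2), 1 point for each of 14331 genes. Red points are the 217 genes whose difference was called higher and blue points the 107 called lower; the dashed line marks equal effects, and Rb1 lies close to it.

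The same differences can be read as a change in what differentiation did. The change between states, myotubes minus myoblasts, was called higher for 1376 genes (9.6%) and lower for 1350 genes (9.42%) where Rb was lost, and higher for 2080 genes (14.5%) and lower for 2215 genes (15.5%) in the wild type. For the 217 positive genes its median was -0.12 with Rb lost and -2.08 in the wild type, and for the 107 negative genes it was 0.26 with Rb lost and 2.41 in the wild type. Of the 217, 159 were lower by at least 1 in wild-type myotubes than in wild-type myoblasts while the cultures that had lost Rb differed by less than 1 between states. A further 23 were lower by at least 1 in both, and 18 were higher by at least 1 with Rb lost while the wild type differed by less than 1. Of the 107 negative genes, 64 were higher by at least 1 in wild-type myotubes with a change of less than 1 where Rb was lost, and 25 were higher by at least 1 in both. The 2 changes between states share their cultures with the difference and are given as a description.

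Genes of DNA replication made up the first large group. In 6 lists covering origin licensing, the replication fork, nucleotide synthesis, replication-coupled chromatin, G1/S cyclins, and E2F and pocket proteins, 110 of 115 members were measured, 34 were called higher, none lower, and the median difference was 0.90, against 0.03 over all genes. Mcm6, a subunit of the helicase that opens replication origins, had signals of 4218, 8863 and 4924 in Rb-flox myotubes, against 37.3, 72.2 and 53.4 in wild-type myotubes. Its myoblast signals were 9930.2, 9882 and 8824 in Rb-null myoblasts, against 3903, 4999.7 and 5872 in wild-type myoblasts. Wild-type myotubes stood far below the other 3 groups, and the difference was 4.03 ± 0.35 (SE, adjusted p = 0.000106). The wild-type myotube signals lay below the offset, so the size of this difference depends on that constant. Over all alternatives it ran from 2.74 to 5.20. The other 2 probe sets of Mcm6 gave differences of 2.04 on MOE430A and -0.68 on MOE430B.

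All 11 called members of the 27-member licensing list were higher, and they include all 6 subunits of the MCM helicase. Mcm2 gave 8907, 9684 and 9552 in Rb-flox myotubes, against 528, 498 and 541 in wild-type myotubes, and in myoblasts 7903, 6670.1 and 7001 in Rb-null myoblasts, against 4314, 3605 and 4171 in wild-type myoblasts. The 3 Rb-flox cultures lay above every myoblast culture, and the difference was 3.05 ± 0.21 (SE, adjusted p = 1.47e-05). Mcm3 differed by 3.10 ± 0.33 (SE, adjusted p = 0.000383), with an Rb effect of 4.30 in myotubes and 1.20 in myoblasts. Mcm4, Mcm5 and Mcm7 had differences of 2.74, 2.15 and 1.55. Topbp1, which helps to fire origins and to signal damage, differed by 3.58 ± 0.33 (SE, adjusted p = 0.000124), but its probe set on MOE430B gave -0.16. The 2 members nearest 0 were Gins3 at 0.08 and Orc3, an origin recognition subunit, at 0.09.

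At the replication fork, 8 of 23 measured members were called, all higher, with a list median of 1.10. Pole, the catalytic subunit of the leading-strand polymerase, gave 2761, 2010.1 and 2847 in Rb-flox myotubes, against 73.9, 102 and 60.2 in wild-type myotubes. Its difference was 3.30 ± 0.34 (SE, adjusted p = 0.000302), with the wild-type myotube signals below the offset. Pcna, the sliding clamp, gave 28517, 34067 and 33654 in Rb-flox myotubes, against 3109.6, 1749 and 3089 in wild-type myotubes, and 38564, 37472 and 33723 in Rb-null myoblasts, against 17048, 18182 and 22066 in wild-type myoblasts. The wild-type myotubes were thus the lowest group by far, while Rb-null myoblasts lay above wild-type myoblasts, and the difference was 2.63 ± 0.31 (SE, adjusted p = 0.000619). Rpa1, the large subunit of the protein that coats single-stranded DNA, differed by 2.34 ± 0.34 (SE, adjusted p = 0.00289).

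Of 15 measured genes of nucleotide synthesis, 2 were called. Rrm2, the regulated subunit of ribonucleotide reductase, gave 17342, 31112 and 15109 in Rb-flox myotubes, against 1794, 1548 and 1552 in wild-type myotubes, and differed by 3.07 ± 0.41 (SE, adjusted p = 0.00205). Tk1, thymidine kinase, differed by 3.04 ± 0.37 (SE, adjusted p = 0.00108). The purine synthesis genes Atic and Paics lay nearest 0, at -0.10 and 0.10. Of 16 genes of chromatin assembly and maintenance behind the fork, 8 were called higher, with a median of 1.45. They were led by Timeless, a fork-stabilising protein, at 2.53, Uhrf1, which guides maintenance methylation, at 2.20, and Dnmt1, the maintenance DNA methyltransferase, at 2.10 ± 0.22 (SE, adjusted p = 0.000315).

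Among the regulators, E2f1, the activating E2F, gave 2764, 2953 and 3083 in Rb-flox myotubes, against 281, 346 and 182 in wild-type myotubes, and 2514, 2570.4 and 1896 in Rb-null myoblasts, against 1529, 1346 and 1430.2 in wild-type myoblasts. No Rb-flox culture overlapped with the wild-type myotubes, and the difference was 2.32 ± 0.30 (SE, adjusted p = 0.00149). Its dimerisation partner Tfdp1 differed by 1.46 ± 0.33 (SE, adjusted p = 0.035). The other 15 measured members of this list were not called: Rbl1 had 1.09 (adjusted p = 0.16), Rbl2 -0.21, E2f3 0.43, E2f7 1.09 and E2f8, a repressive E2F, 0.13. E2f2 had the most negative value of the list, -1.20 (adjusted p = 0.2), with signals of 4060.2, 3568 and 4327 in Rb-flox myotubes, against 4246, 2339 and 2011 in wild-type myotubes, and 13243, 12610.0 and 5769 in Rb-null myoblasts, against 3178, 2411 and 3126 in wild-type myoblasts. The Rb-null myoblasts stood highest in this gene, and its difference was called without culture F (-1.57, adjusted p = 0.0451).

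Ccne1, cyclin E1, which with Cdk2 starts S phase, gave 7111, 5059 and 6644 in Rb-flox myotubes, against 504, 553 and 183 in wild-type myotubes, and 5404, 4037 and 3228 in Rb-null myoblasts, against 1769, 3357 and 2642 in wild-type myoblasts. Its difference was 2.93 ± 0.45 (SE, adjusted p = 0.00427), and those of Ccna2, cyclin A2, and Cks1b, a CDK-binding protein, were 2.14 and 2.13. Cdk2 had an Rb effect of 1.21 in myotubes and 0.99 in myoblasts, a difference of 0.22 with an interval of -0.46 to 0.89. Ccnd1, cyclin D1, had 0.35 (adjusted p = 0.841). None of 7 measured CDK inhibitors was called. Cdkn1a, which encodes p21, gave 55109.7, 64158 and 62933 in Rb-flox myotubes, against 99096, 80244 and 89057 in wild-type myotubes, and 37703, 37448 and 24686 in Rb-null myoblasts, against 23647, 27089 and 22933 in wild-type myoblasts. The Rb-flox myotubes all lay below the wild-type myotubes, while culture F overlapped with the wild-type myoblasts, and the difference of -0.97 did not pass the test (adjusted p = 0.125). Cdkn1b, Cdkn1c and Cdkn2a had 0.42, -0.89 and 0.73.

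With scan day as a block 32 members of the 6 lists were called higher, and with fluidics station as a block also 32, with none lower under either. Among the replication genes named here, the station block ended the calls of Uhrf1 (adjusted p = 0.0522), Mcm7 (0.115) and Tfdp1 (0.0598), for which scan day (0.0598) and median centring (0.0682) did so too, as did median centring for Mcm7 (0.072), and leaving out 1 culture ended those of Tfdp1 (without A, B, C, D, E, G, H or L: 0.0525 to 0.0931) and Mcm7 (without B, C, E, H, I or L: 0.0519 to 0.0791), all as adjusted p.

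Genes of mitosis made up the second group. In 3 lists covering mitotic kinases, the spindle and chromosome condensation, 64 of 65 members were measured, 26 were called higher, none lower, and the median difference was 1.43. Cdk1, the kinase that drives cells into mitosis, gave 8857, 8849 and 8328 in Rb-flox myotubes, against 169, 134 and 36.1 in wild-type myotubes. Its myoblast signals were 12050.2, 12435 and 11484 in Rb-null myoblasts, against 9631, 11037 and 9472 in wild-type myoblasts. The 3 Rb-flox cultures differed from each other by far less than they did from the wild type, and the difference was 4.97 ± 0.28 (SE, adjusted p = 2.67e-06). The mean signal of wild-type myotubes was below the offset, so the size of this difference depends on that constant. The change between states was -0.46 with Rb lost and -5.43 in the wild type.

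Ube2c, the ubiquitin-conjugating enzyme of the anaphase-promoting complex, gave 4042, 4558 and 3226 in Rb-flox myotubes, against 85.3, 86.2 and 124 in wild-type myotubes, and 12848, 10579 and 9687 in Rb-null myoblasts, against 6432, 8494 and 8711 in wild-type myoblasts. Here the Rb-flox cultures lay between the wild-type myotubes and all myoblasts, and the difference was 3.66 ± 0.27 (SE, adjusted p = 1.88e-05). The wild-type myotube signals of Ube2c were below the offset. Top2a, which untangles sister chromatids, gave 4826, 4193 and 5398 in Rb-flox myotubes, against 241, 324 and 288 in wild-type myotubes, with a difference of 3.37 ± 0.24 (SE, adjusted p = 1.65e-05). Mki67, the proliferation marker Ki-67, gave 2650.3, 2502 and 2605 in Rb-flox myotubes, against 128, 233 and 60.7 in wild-type myotubes, with a difference of 3.26 ± 0.37 (SE, adjusted p = 0.000511). Among the 29 spindle and cytokinesis genes, 12 were called, led by Anln, the cytokinesis scaffold anillin, at 3.13, Pttg1, securin, at 2.97, and Birc5, survivin, at 2.92. For Anln the other array type gave 0.55. Of the 17 mitotic kinases and their partners, 6 were called, with Ccnb2, a B-type cyclin, at 2.45 and Bub1b, a spindle checkpoint kinase, at 2.21 after Cdk1. The genes nearest 0 were the cohesin subunit Rad21 at -0.01 and Ube2s, another enzyme of the anaphase-promoting complex, at 0.09.

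Between states the replication and mitosis lists were given side by side, with no test between them. The mitosis lists had a median of -0.94 between Rb-flox myotubes and Rb-null myoblasts, with 35 of 64 genes called lower, against -2.41 in the wild type, with 60 of 64 called lower. The replication lists had -0.36 with Rb lost, with 17 of 110 genes called lower, against -1.39 in the wild type, with 75 of 110 called lower. In myoblasts alone the replication lists had a median Rb effect of 0.48, positive for 98 of 110 genes, and the mitosis lists one of 0.27, positive for 55 of 64, with no gene called in either. DNA repair and checkpoint genes, 5 of 22 called higher with a median of 0.79, included Clspn, an adaptor of the replication checkpoint, at 2.19, Brca1 at 1.97 and Chek1, a checkpoint kinase, at 1.80. The 4 kept probe sets of Brca1 ran from -0.58 to 1.97 and the 3 of Chek1 from -0.08 to 1.80, and their means were not called (adjusted p = 0.229 and 0.0672), nor was Chek1 with a higher offset (0.0792). Leaving out 1 culture ended the call of Chek1 (without A, C, D, E, G, H, I, J or L: 0.0514 to 0.11), as adjusted p.

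**Figure D2:**
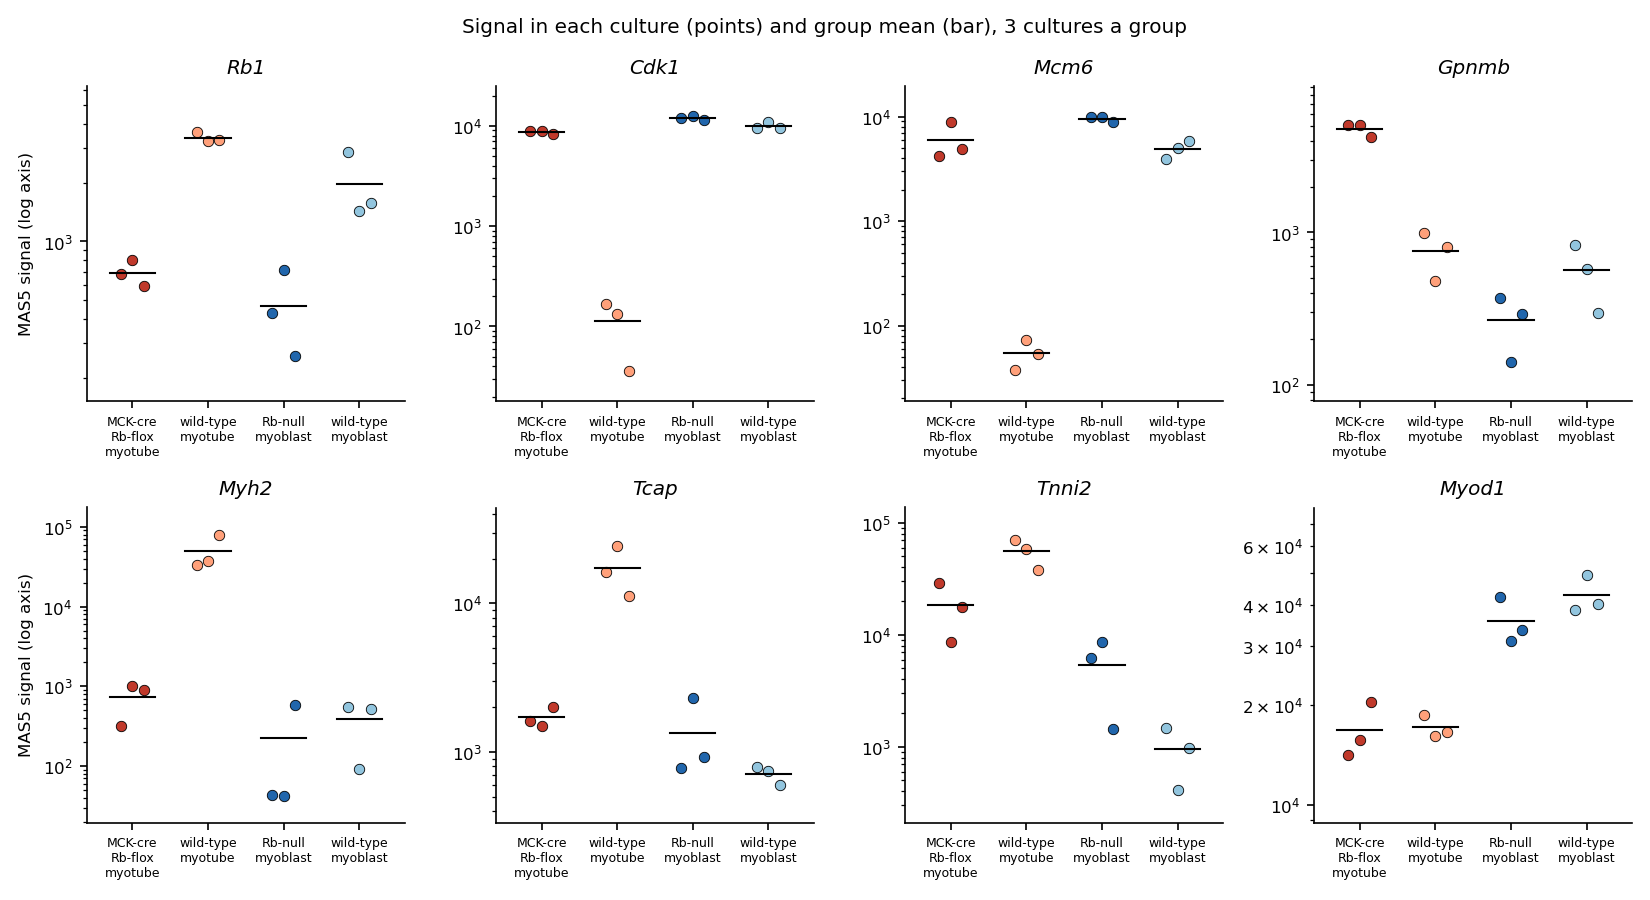
MAS5 signal in each of the 12 cultures (vertical axis, log scale) for Rb1 and 7 genes of the groups described, with the mean of each group of 3 as a bar. Wild-type myotubes sit far below the other 3 groups in Cdk1 and Mcm6 and far above them in Myh2 and Tcap, Rb-flox myotubes stand alone in Gpnmb, Tnni2 is higher in 2 of 3 Rb-null cultures than in any wild-type myoblast culture, and Myod1 separates by state.

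The promoters of these genes are shown for the sites of the factors that Rb and its relatives act on. Windows of 300 bases, 250 before and 50 after the gene start, were taken from RefSeq on GRCm38.p6 for 11429 of the 14331 genes, 14524 windows in all. The E2F motif was searched as TTTCCCGC, TTTGGCGC, TTTCGCGC or TTTGCCGC and the cell cycle homology region (CHR), a site of mitotic genes, as TTTGAA, both on either strand. The first 2 promoters below belong to called helicase genes and have their E2F matches in capitals. The other 2 belong to called mitotic genes and have only their CHR matches in capitals. The Cdk1 window also holds the E2F letters TTTCGCGC, left in lower case. Each sequence runs 5' to 3' on the gene's strand. Mcm6 lies at chr1:128359656-128359955 (minus strand), Mcm3 at chr1:20820263-20820562 (minus strand), Cdk1 at chr10:69352863-69353162 (minus strand) and Ube2c at chr2:164769679-164769978 (plus strand).
Mcm6: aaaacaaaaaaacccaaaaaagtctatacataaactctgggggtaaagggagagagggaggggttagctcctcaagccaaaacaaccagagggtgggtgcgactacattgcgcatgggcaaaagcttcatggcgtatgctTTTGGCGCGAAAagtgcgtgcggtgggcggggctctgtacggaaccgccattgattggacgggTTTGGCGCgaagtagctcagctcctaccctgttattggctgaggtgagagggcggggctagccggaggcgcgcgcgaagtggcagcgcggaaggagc
Mcm3: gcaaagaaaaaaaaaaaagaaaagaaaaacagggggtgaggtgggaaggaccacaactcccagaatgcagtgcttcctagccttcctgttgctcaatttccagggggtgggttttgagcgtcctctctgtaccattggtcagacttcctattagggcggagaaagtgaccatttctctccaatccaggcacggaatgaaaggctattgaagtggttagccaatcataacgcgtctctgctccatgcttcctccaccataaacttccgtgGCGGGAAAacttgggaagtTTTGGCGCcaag
Cdk1: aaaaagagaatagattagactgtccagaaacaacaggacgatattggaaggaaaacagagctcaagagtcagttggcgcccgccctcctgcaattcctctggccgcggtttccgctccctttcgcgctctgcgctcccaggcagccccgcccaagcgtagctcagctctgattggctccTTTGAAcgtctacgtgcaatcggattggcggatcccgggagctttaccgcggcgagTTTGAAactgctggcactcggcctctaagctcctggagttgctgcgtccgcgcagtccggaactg
Ube2c: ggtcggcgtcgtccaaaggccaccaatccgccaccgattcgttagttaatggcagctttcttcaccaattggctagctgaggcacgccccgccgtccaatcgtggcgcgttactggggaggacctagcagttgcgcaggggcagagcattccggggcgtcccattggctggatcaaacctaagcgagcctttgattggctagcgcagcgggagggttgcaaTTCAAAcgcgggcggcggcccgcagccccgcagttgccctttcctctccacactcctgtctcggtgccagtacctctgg

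Mcm6 held 3 E2F matches, of which 2 overlap, and Mcm3 held 2. An E2F match was present in 27.0% of the 111 windows of the replication lists, in 8.93% of the 56 windows of the mitosis lists and in 11.1% of the 226 windows of all genes called higher, against 3.59% of all windows and 2.75% of the 109 windows of genes called lower. A CHR match was present in 64.3% of the windows of the mitosis lists, 21.6% of those of the replication lists and 18.6% of those of the genes called higher, against 12.5% of all windows and 12.8% for the genes called lower. A match is a description of letters in these windows and was not tested as a site.

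Genes of the contractile apparatus and muscle metabolism leaned negative. In 8 lists, 119 of 131 members were measured, and 12 were called lower and 1 higher. The median difference was -1.09, with 102 of 119 negative, against 6794 of all 14331 genes tested. Of the 131, 6 failed the signal filter, which a gene high in only 3 cultures, such as the wild-type myotubes, passes. The signs and medians of these lists, given together or singly, therefore describe the measured members only. Within myotubes, 37 of the 119 had a called lower Rb effect and 1 a called higher one, and the median Rb effect was -0.97 in myotubes and 0.02 in myoblasts. The change between states had a median of 1.35 with Rb lost, with 67 genes called higher, and of 2.62 in the wild type, with 99 called higher.

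Myh2, the fast IIa myosin heavy chain, was among the genes with the most negative differences, though which gene came first changed with the setting. It gave 319, 1013 and 892 in Rb-flox myotubes, against 32847, 37209 and 79936 in wild-type myotubes, and in myoblasts 43.6, 42.4 and 582 in Rb-null myoblasts, against 550.0, 90.2 and 512 in wild-type myoblasts. Every wild-type myotube culture was above every other culture, the Rb-null myoblast signals of D and E lay below the offset, and the difference was -5.12 ± 0.85 (SE, adjusted p = 0.0074). Myh8, the perinatal heavy chain, gave 2812, 3093 and 5386 in Rb-flox myotubes, against 28229.8, 38342 and 22506 in wild-type myotubes, with a difference of -2.84 ± 0.57 (SE, adjusted p = 0.022). The other 5 measured heavy chains were not called: Myh4, the fast IIb chain, had -2.42 (adjusted p = 0.134), Myh7, the slow chain, -2.36 (0.276), Myh3, the embryonic chain, -1.68 (0.371), Myh1, the fast IIx chain, -1.07 (0.596), and Myh14, a nonmuscle chain, 0.18. Myh3 gave 59058, 40722 and 42614 in Rb-flox myotubes, against 93748, 129381 and 81306 in wild-type myotubes, and Myh1 gave 36900.1, 35299.7 and 31927 in Rb-flox myotubes, against 73324, 64382 and 47068 in wild-type myotubes. In both genes each Rb-flox culture lay below each wild-type myotube culture, but the embryonic and IIx chains did not pass the test of the difference. All 12 measured myosin light chains and binding proteins had negative differences, with a median of -1.59 and none called.

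In the thin filament, Tnni2, fast troponin I, differed by -3.87 ± 0.84 (SE, adjusted p = 0.0325) and Tnnc2, fast troponin C, by -2.73 ± 0.65 (SE, adjusted p = 0.0481). Tnni2 gave 28738, 8679 and 17804 in Rb-flox myotubes, against 70402, 58427 and 37752 in wild-type myotubes, and 6196, 8593 and 1427 in Rb-null myoblasts, against 1459, 407 and 971 in wild-type myoblasts. Every Rb-flox culture lay below every wild-type myotube culture. In myoblasts, Rb-null cultures D and E lay above all wild-type cultures, and F lay within their range. Acta1, skeletal actin, had -1.21 (adjusted p = 0.351). Tpm3, a tropomyosin of slow fibres and of nonmuscle cells, was the 1 gene called higher, 1.27 ± 0.29 (SE, adjusted p = 0.0419), and its 5 probe sets ran from -0.47 to 2.06. Their mean took the difference to 0.79, which was not called (adjusted p = 0.447).

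At the Z-disc, 3 of 22 measured genes were called, all lower. Tcap, telethonin, which anchors titin, gave 1612, 1507 and 2022 in Rb-flox myotubes, against 16207, 24517 and 11179 in wild-type myotubes, and 779, 2315 and 921 in Rb-null myoblasts, against 791, 748 and 603 in wild-type myoblasts. The Rb-flox myotubes overlapped with the Rb-null myoblasts and not with the wild-type myotubes, and the difference was -3.84 ± 0.49 (SE, adjusted p = 0.00146). Capn3, the muscle calpain, differed by -2.94 ± 0.49 (SE, adjusted p = 0.00816) and Myot, myotilin, by -2.87 ± 0.64 (SE, adjusted p = 0.0354). Cav3, the muscle caveolin, was the 1 called of 11 genes of the dystrophin complex, at -2.49 ± 0.53 (SE, adjusted p = 0.0308). Of 19 genes of calcium release and reuptake, Sln, sarcolipin, an inhibitor of the calcium pump, was called. It gave 473, 155 and 1180.2 in Rb-flox myotubes, against 16970.3, 4259 and 31746 in wild-type myotubes, and its difference was -4.38 ± 0.89 (SE, adjusted p = 0.0224). Pvalb, parvalbumin, and Ryr3 lay nearest 0, at -0.02 and -0.05.

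Of 22 measured genes of muscle energy supply, 3 were called lower. Car3, carbonic anhydrase 3, gave 7692, 2607 and 2534 in Rb-flox myotubes, against 145796, 177514 and 151517 in wild-type myotubes, and 7904, 13052 and 5426 in Rb-null myoblasts, against 29122, 23563 and 25325 in wild-type myoblasts. It was lower where Rb was lost in each state, more so in myotubes, with Rb effects of -5.36 and -1.64 and a difference of -3.72 ± 0.54 (SE, adjusted p = 0.00289). Ckm differed by -3.16 ± 0.68 (SE, adjusted p = 0.0311), with a second probe set at -0.44, and Ampd1, muscle AMP deaminase, by -2.45 ± 0.50 (SE, adjusted p = 0.0225). Mitochondrial respiration genes were not called, 0 of 29, but 27 of them had negative differences, with a median of -0.48 and a lowest value of -0.87.

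The size of the muscle group depended on the fit. With station as a block 28 of the 119 genes were called lower and the median was -1.71, with scan day as a block 7 were called and the median was -0.99, and without culture B 5 were called and the median was -0.99. Leaving out 1 culture gave between 4 genes called lower (without wild-type myoblast C) and 23 (without Rb-null myoblast F); counts of 5 to 7 came without cultures D, E, G, H or K, 10 or 11 without I, J or L, and 15 without A. For single genes, scan day as a block ended the calls of Tnni2 (adjusted p = 0.0638), Tnnc2 (0.0964), Myot (0.0691), Cav3 (0.0559), Ampd1 (0.124) and Tpm3 (0.0713), station as a block those of Sln (0.0722), Myot (0.0865), Ampd1 (0.0734) and Tpm3 (0.0735), and a lower offset those of Myh2 (0.0536), Myot (0.0537) and Tnnc2 (0.0537). Quantile normalisation ended those of Tnni2 (0.0649) and Tnnc2 (0.103), and no filter or median centring those of Tnnc2 (0.0632 and 0.0722) and Tpm3 (0.0535 and 0.0889). Leaving out 1 culture ended the calls, as adjusted p, of Sln (without B, C, D, E or G: 0.0505 to 0.0628), Tnni2 (without B, C, D, E, G, H, K or L: 0.0527 to 0.0887), Ckm (without B, C, D, E, G, H, K or L: 0.0525 to 0.0854), Myh8 (without B, C, H or J: 0.0534 to 0.0657) and Ampd1 (without C, D, E or H: 0.0581 to 0.0684), and, over 9 or more cultures each, those of Tnnc2 (without B, C, D, E, G, H, I, J, K or L: 0.0741 to 0.127), Tpm3 (without A, B, C, D, E, F, G, I, K or L: 0.0526 to 0.114), Myot (without A, B, C, E, F, G, H, I, J or K: 0.0565 to 0.103) and Cav3 (without B, C, D, E, G, H, I, K or L: 0.0502 to 0.0847).

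The promoters of 2 called muscle genes are shown with the E-box CAGCTG, a sequence bound by MyoD and myogenin with their partners, in capitals. Ckm lies at chr7:19410844-19411143 (plus strand) and Capn3 at chr2:120463343-120463642 (plus strand), from RefSeq on GRCm38.p6.
Ckm: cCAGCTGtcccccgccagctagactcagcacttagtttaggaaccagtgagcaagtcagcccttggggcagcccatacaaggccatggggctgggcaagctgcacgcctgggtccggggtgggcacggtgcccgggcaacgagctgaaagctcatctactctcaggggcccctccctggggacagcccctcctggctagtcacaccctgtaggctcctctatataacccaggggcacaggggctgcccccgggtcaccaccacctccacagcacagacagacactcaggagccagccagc
Capn3: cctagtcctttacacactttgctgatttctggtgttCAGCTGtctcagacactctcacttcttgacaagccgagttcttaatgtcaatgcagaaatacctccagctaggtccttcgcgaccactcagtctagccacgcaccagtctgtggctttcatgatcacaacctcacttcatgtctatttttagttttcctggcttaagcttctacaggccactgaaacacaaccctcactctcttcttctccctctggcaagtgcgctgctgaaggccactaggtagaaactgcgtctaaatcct
CAGCTG, which reads the same on both strands, was present in 36.0% of the 111 windows of the muscle lists and 21.1% of the windows of all genes called lower, against 16.02% of all windows and 16.8% for the genes called higher. A MEF2 motif was present in 9.01% and 4.59% of the windows of the muscle lists and of the genes called lower, against 1.93% of all windows.

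The factors that set up the muscle program had no called difference between the Rb effects. None of 18 measured myogenic regulators passed, with a list median of -0.12, where 1.51% of all genes were called higher and 0.747% lower. At such shares, the absence of calls in a short list is not read as a trait of its genes. This holds here and for the other lists without a call. Within myotubes, however, 4 of the 18 had a called lower Rb effect and 1 a called higher one. Myod1 gave 14109.8, 15682 and 20452 in Rb-flox myotubes, against 18609, 16171 and 16567 in wild-type myotubes, and its difference was 0.22 with an interval of -0.39 to 0.82. Myog, myogenin, gave 30171, 8523 and 47126 in Rb-flox myotubes, against 41945, 33200.5 and 45303 in wild-type myotubes, with culture K apart from the other 2 Rb-flox cultures, and a difference of -0.94 (adjusted p = 0.669). Mef2c, a cofactor of MyoD in late muscle genes, gave 12729, 10099 and 16869.7 in Rb-flox myotubes, against 37264, 57292 and 40124 in wild-type myotubes, and 2774, 7614 and 1793 in Rb-null myoblasts, against 3898, 1122 and 1761 in wild-type myoblasts. Its groups did not overlap in myotubes, and the difference of -2.48 missed the threshold (adjusted p = 0.075), though it passed with station as a block (0.0164) and without cultures A or F. Myf5, an early myogenic factor, had 2.37 (adjusted p = 0.262) with wide spread, at 589, 2289.7 and 209.9 in Rb-flox myotubes, against 16.8, 58.9 and 437 in wild-type myotubes. The inhibitors of differentiation Id1, Id2 and Id3, none called, had 0.54, 0.79 and 1.05, each below 0 between states in both genotypes: Id1 changed by -2.02 with Rb lost and -2.56 in the wild type. Genes of cell fusion and membrane repair, 0 of 17 called, had a median of 0.02, and genes of the neuromuscular junction, 0 of 10, one of -0.24.

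**Figure D3:**
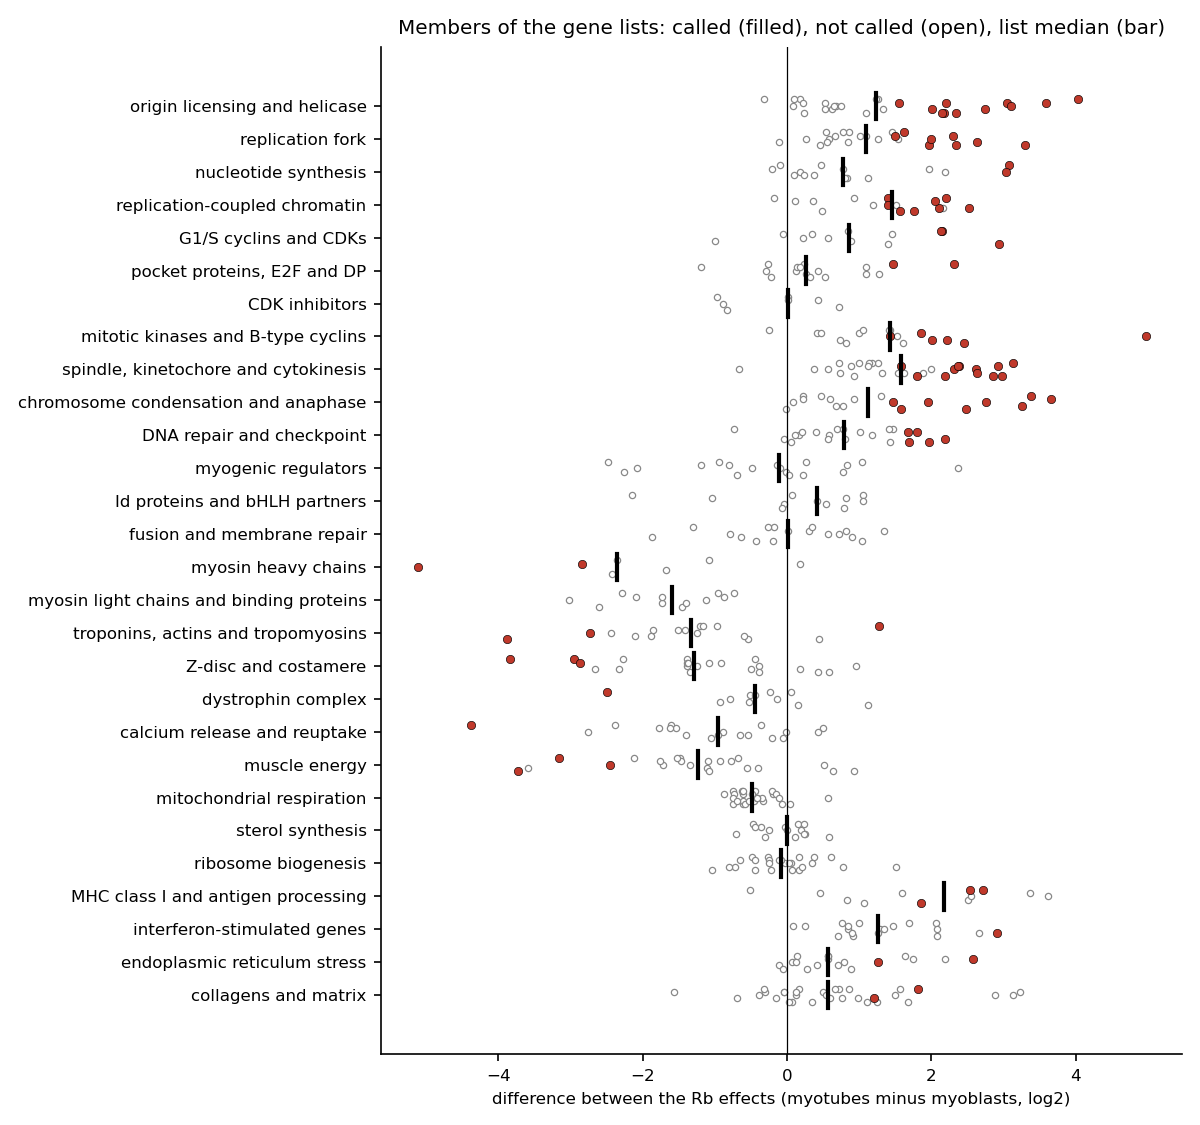
Difference between the Rb effects (horizontal axis, myotubes minus myoblasts, log2) for each measured member of 28 gene lists, with called members filled, others open and the list median as a bar. Replication and mitosis lists lie to the right of 0 with many called members, muscle lists to the left with few, and the myogenic regulators, Id proteins, fusion and sterol genes are spread around 0 with none called.

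Genes of antigen presentation and the interferon response also leaned positive, with more spread between cultures. Of 12 measured genes of the MHC class I pathway 3 were called higher, with a median of 2.18, and of 19 measured interferon-stimulated genes 1 was called higher, with a median of 1.25 and all 19 positive. Of the 32 interferon-stimulated genes listed, 9 failed the signal filter and 4 had no probe set of their own, and of the 23 MHC class I genes 2 and 9. A gene high in only 3 cultures, such as those of 1 group, passes that filter. The signs and medians are therefore a description of the measured members only. Tap2, a subunit of the peptide transporter, gave 4293, 4337 and 4222 in Rb-flox myotubes, against 961, 1174 and 888 in wild-type myotubes, and 2168, 1568 and 2846 in Rb-null myoblasts, against 3836, 2777 and 4623 in wild-type myoblasts. The Rb-flox cultures were close to each other, and the difference was 2.71 ± 0.33 (SE, adjusted p = 0.000997). Its partner Tap1 differed by 1.85 ± 0.42 (SE, adjusted p = 0.0364). B2m, the light chain of class I molecules, gave 64430.5, 19697 and 60338 in Rb-flox myotubes, against 7196, 4188 and 7049 in wild-type myotubes, with culture K between the other 2 Rb-flox cultures and the wild type, and differed by 2.54 ± 0.58 (SE, adjusted p = 0.0403). Ifi35, an interferon-induced protein, gave 4243, 1591 and 3098 in Rb-flox myotubes, against 233, 198 and 124 in wild-type myotubes, again with culture K lowest, and differed by 2.91 ± 0.50 (SE, adjusted p = 0.00918).

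H2-D1, a class I heavy chain on chromosome 17, was the extreme of this spread. It gave 28025, 468 and 42013 in Rb-flox myotubes, against 172, 32.7 and 104 in wild-type myotubes, and 2379, 20.1 and 582 in Rb-null myoblasts, against 61.9, 99.1 and 49.3 in wild-type myoblasts. Cultures J and L were far above all wild-type cultures. Cultures D, F and K were above them by less, and culture E was below all of them. Its difference was 3.61 ± 1.82 (SE, adjusted p = 0.387), and it was called without culture K (difference 5.56, adjusted p = 0.0221). D17H6S56E-5, also on chromosome 17 (chr17:34996678-35000774), was among the genes with the largest positive differences, and Cdk1 passed it under some settings. It gave 21751, 10992 and 12558 in Rb-flox myotubes, against 133, 269 and 112 in wild-type myotubes, and 9149, 9248 and 11538 in Rb-null myoblasts, against 5437, 5298 and 12389.9 in wild-type myoblasts, and differed by 5.16 ± 0.47 (SE, adjusted p = 0.000124). Ifi202b, an interferon-inducible gene, differed by 3.92 ± 0.80 (SE, adjusted p = 0.0241), with culture K again lowest at 7259, 966 and 5645 in Rb-flox myotubes, against 336, 348 and 57.8 in wild-type myotubes.

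For these 2 lists together, 31 of 55 members were measured and 4 were called higher. Without culture K the count was 14 with a median of 1.80, with array weights it was also 14, and leaving out any 1 of C, E, G, H, I, J or L gave 2. Between states, these lists had a median of 1.495 with Rb lost, with 18 genes called higher, and of 0.14 in the wild type, with 3 called higher and 3 lower. The call of B2m was lost with scan day (0.0599) or station (0.121) as a block and that of Ifi202b with station (0.0832), as adjusted p, and median centring ended those of Tap1 (0.05) and B2m (0.063), that of B2m being lost also with no filter (0.0534) or the mean of probe sets (0.059). Leaving out 1 culture ended the calls of Tap1 (without A, C, D, E, G, H, I, J or L: 0.0547 to 0.106), B2m (without A, B, C, E, F, G, H, I, J or L: 0.0546 to 0.111) and Ifi202b (without A, C, D, E, I, J or L: 0.0501 to 0.0666), as adjusted p. The interferon-stimulated response element (ISRE), searched as GAAA, any 2 bases and GAAA, was present on either strand in 40.6% of the 32 windows of these lists. It was present in 4.87% of the windows of the genes called higher and 2.82% of all windows. None of the 109 windows of the genes called lower held it. The promoter of B2m, at chr2:122147437-122147736 (plus strand, RefSeq, GRCm38.p6), is shown with the match in capitals.
B2m: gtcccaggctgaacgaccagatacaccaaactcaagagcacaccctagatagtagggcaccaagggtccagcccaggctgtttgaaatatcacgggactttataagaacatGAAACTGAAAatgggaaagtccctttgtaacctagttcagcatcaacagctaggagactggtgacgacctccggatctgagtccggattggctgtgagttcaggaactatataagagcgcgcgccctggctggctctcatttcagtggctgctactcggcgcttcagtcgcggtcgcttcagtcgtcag

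In another set of genes the Rb-flox myotubes stood above all other groups. Gpnmb, a transmembrane glycoprotein of lysosomes and the cell surface, gave 5095, 5036 and 4253 in Rb-flox myotubes, against 998, 478 and 797 in wild-type myotubes, and 371, 140.1 and 293 in Rb-null myoblasts, against 829, 576 and 294 in wild-type myoblasts. The wild type did not pass the test between states, at 0.38, while with Rb lost the change was 3.67, and the difference was 3.29 ± 0.48 (SE, adjusted p = 0.00311). Lpl, lipoprotein lipase, which releases fatty acids from circulating fat, gave 8284, 14702 and 10857 in Rb-flox myotubes, against 749, 518 and 473 in wild-type myotubes, and 1703, 881 and 2024 in Rb-null myoblasts, against 2845, 1400.5 and 3627 in wild-type myoblasts, with a difference of 4.69 ± 0.50 (SE, adjusted p = 0.000383). Cbr2, a carbonyl reductase, gave 925, 1156 and 542 in Rb-flox myotubes, against 27.7, 42.2 and 30.0 in wild-type myotubes, and differed by 3.17 ± 0.57 (SE, adjusted p = 0.012). The wild-type myotube signals of Cbr2 were below the offset. Ddit3, which encodes CHOP, a transcription factor of endoplasmic reticulum stress, gave 4587, 3357 and 6635 in Rb-flox myotubes, against 1106, 792 and 916 in wild-type myotubes, and differed by 2.58 ± 0.48 (SE, adjusted p = 0.0136), a call lost with station as a block (adjusted p = 0.0639).

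Genes of fatty acid use differed in both directions. Of 21 measured genes of fatty acid use, Lpl and Plin2, a lipid droplet coat protein, at 1.45, were called higher and Cd36, a fatty acid transporter, at -3.81 ± 0.63 (SE, adjusted p = 0.00748), lower, with a list median of 0.04. Cd36 gave 229.9, 152 and 448 in Rb-flox myotubes, against 3265, 6485 and 3819 in wild-type myotubes, and its call was lost with a lower offset (adjusted p = 0.0509). None of 15 sterol synthesis genes was called, with a median of -0.01. Sct, secretin, a peptide hormone, gave 6022, 10770.2 and 1577 in Rb-flox myotubes, against 249, 211 and 236 in wild-type myotubes, with culture L lowest of the Rb-flox cultures and still above the wild type, and differed by 4.26 ± 0.68 (SE, adjusted p = 0.00538). Besides Ddit3, Pdia3, a disulfide isomerase, was called in the endoplasmic reticulum stress list at 1.27, 2 of 18 with a median of 0.57, and Hsp90aa1, the inducible HSP90, in the chaperone list at 1.80 ± 0.29 (SE, adjusted p = 0.00538), 1 of 16 with a median of -0.17. The calls of Plin2 and Pdia3 were lost with median centring (0.0997 and 0.0835) and with station as a block (0.125 and 0.072), that of Plin2 also with a lower offset (0.052), no filter (0.0581) or scan day as a block (0.0861), and, without 1 culture, those of Plin2 (without A, B, C, E, F, G, H, J, K or L: 0.0548 to 0.131) and Pdia3 (without B, C, D, E, G, H or L: 0.0556 to 0.0892), as adjusted p.

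Matrix genes leaned positive. Of 32 measured collagen and matrix genes, 2 were called higher and 24 were positive, with a median of 0.57. Col5a2, a fibrillar collagen chain, differed by 1.82 ± 0.33 (SE, adjusted p = 0.0133) and Fbln1, fibulin 1, by 1.20 ± 0.27 (SE, adjusted p = 0.0345), and outside the list Emilin1, an elastic fibre glycoprotein, differed by 3.21 ± 0.55 (SE, adjusted p = 0.00906). Station as a block ended the calls of Col5a2 (0.0598) and Fbln1 (0.0639), median centring (0.0694) and the mean of probe sets (0.0562) that of Fbln1, and 1 culture left out that of Fbln1 (without A, B, C, E, F, G, H, I, J or L: 0.0505 to 0.1), as adjusted p. Fibroblasts are the contaminant that the labels name. Of 14 fibroblast markers 8 were measured and none was called, with a median of 0.43, and their summed signal over 13 of the genes on MOE430A ranged from 15495 to 34957 in Rb-flox myotubes and from 34654 to 42682 in wild-type myotubes, against 20771 to 44307 in myoblasts without Rb and 34735 to 44851 in the wild-type ones. Markers of macrophages (6 measured), endothelium (3), adipocytes (3) and smooth muscle (4) had medians between -0.01 and 0.14, none called. Adipoq, Lep, Pparg, Ptprc, Fcer1g, Tie1, Vwf, Lmod1, Dcn and Cd248 had mean signals below the offset. Summed macrophage markers on MOE430A ranged from 5308 to 6808 in Rb-flox and 4434 to 7322 in wild-type myotubes. In Rb-null myoblasts they ranged from 2762 to 4347 and in wild-type myoblasts from 2676 to 5226. Smooth muscle markers, in the same order, ranged from 4975 to 9942, 7369 to 9304, 2490 to 4567 and 3759 to 5369.

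Other genes with large negative differences belonged to no list. Ramp1, a partner of the calcitonin-receptor-like receptor, gave 810.0, 645 and 1615 in Rb-flox myotubes, against 12001, 16896 and 13878 in wild-type myotubes, and 1073, 2037 and 647 in Rb-null myoblasts, against 438, 713 and 479.8 in wild-type myoblasts. The Rb-flox myotubes lay within the range of the myoblasts, and the difference was -4.65 ± 0.52 (SE, adjusted p = 0.000509), with its 3 probe sets between -4.65 and -0.26. Tekt5, a tektin, differed by -3.45 ± 0.43 (SE, adjusted p = 0.00126), Wif1, a secreted Wnt inhibitor, by -3.30 ± 0.60 (SE, adjusted p = 0.012), and Tceal7 by -3.30 ± 0.56 (SE, adjusted p = 0.00866). Wif1 gave 2.73, 15.9 and 69.6 in Rb-flox myotubes, against 689.5, 2147 and 1065 in wild-type myotubes, and the Rb-flox values lay below the offset of the array. Ablim3, an actin-binding LIM protein, and Cilp, a matrix protein, had -3.95 and -3.79, and their calls were lost with scan day as a block (0.172 and 0.197), as was that of Tceal7 (0.0713), while a lower offset (0.0802) or no filter (0.062) ended that of Ablim3. Without 1 culture the calls lost were those of Ablim3 (without A, B, C, D, E, F, G, H or I: 0.0625 to 0.129) and Cilp (without A, B, C, D, E, F, G, I, J, K or L: 0.0531 to 0.1), all as adjusted p.

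**Figure D4:**
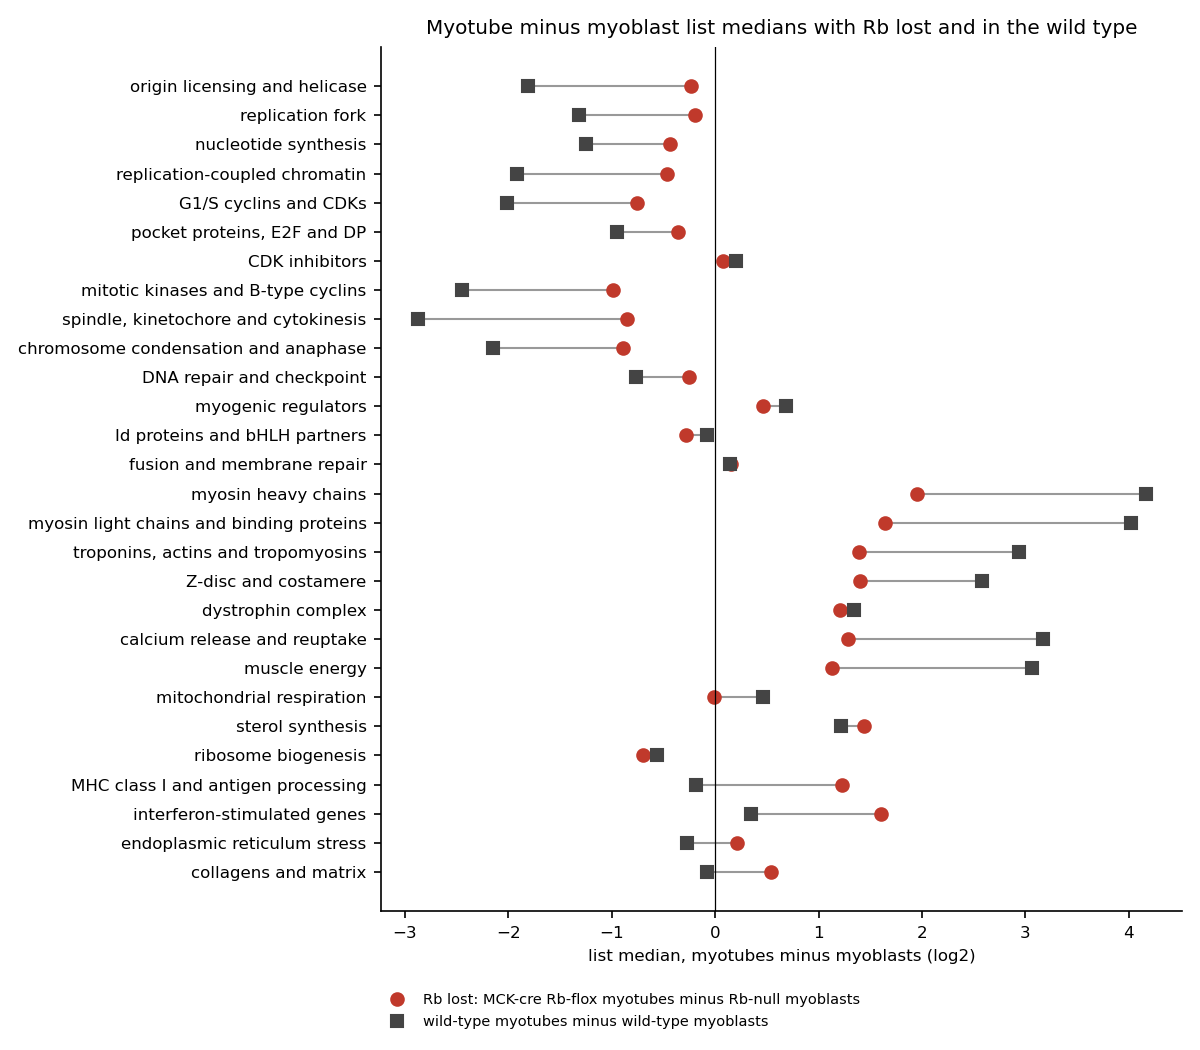
Median change between states (horizontal axis, myotubes minus myoblasts, log2) of 28 gene lists, as red circles where Rb was lost (MCK-cre Rb-flox myotubes minus Rb-null myoblasts) and dark squares in the wild type. The red circles lie nearer to 0 than the squares for the replication, mitosis and muscle lists, and farther from 0 for the MHC class I and interferon-stimulated genes.

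The Rb effects had opposite signs in 95 of the 217 genes called higher and 84 of the 107 called lower. The share of opposite signs over all genes was not computed. Calling genes on the difference itself favours opposite signs, and the myoblast effect was positive for 6986 of all 14331 genes. These counts are therefore given as a description only. In 12 called genes the Rb effect was at least 1 in each state with opposite signs, 8 negative and 4 positive in the difference, and the 10 with the largest smaller effect are described. Tnni2 and Tnnc2, given above, were lower in Rb-flox myotubes and higher in Rb-null myoblasts than in the wild type of their state. Frem2, a basement membrane protein, gave 844, 2036 and 2150.0 in Rb-flox myotubes, against 8977, 10176 and 11729.9 in wild-type myotubes, and 2261, 5072 and 1956 in Rb-null myoblasts, against 1742, 798 and 1152 in wild-type myoblasts. Neither pair of groups overlapped, and the difference was -3.70 ± 0.53 (SE, adjusted p = 0.00278). Anxa8, an annexin, gave 1237, 626 and 581 in Rb-flox myotubes, against 4735, 1739 and 4647 in wild-type myotubes, and 1011, 1005 and 399.7 in Rb-null myoblasts, against 106, 341 and 169.7 in wild-type myoblasts, and differed by -3.42 ± 0.62 (SE, adjusted p = 0.0129). Fxyd6, a regulator of the sodium pump, Prr32, Egln3, a prolyl hydroxylase of the hypoxia factor, and Sox11, a transcription factor, differed by -2.92, -2.58, -2.46 and -2.44.

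The reverse pattern, higher in Rb-flox myotubes and lower in Rb-null myoblasts, was found in Fstl1, a secreted follistatin-like protein, and Ssc5d, a soluble scavenger receptor, among the 10. Fstl1 gave 907, 468 and 904 in Rb-flox myotubes, against 520.0, 104 and 321 in wild-type myotubes, and 1412, 1541 and 1179 in Rb-null myoblasts, against 2585, 4799 and 4482 in wild-type myoblasts. The myotube groups overlapped in Fstl1, and the difference was 2.47 ± 0.52 (SE, adjusted p = 0.0281). Ssc5d differed by 2.40 ± 0.47 (SE, adjusted p = 0.0192). In none of the 10 was the myoblast effect itself called. Scan day as a block ended the calls of Prr32 (0.121) and Ssc5d (0.0975), station those of Egln3 (0.0582) and Fstl1 (0.0639), the mean of probe sets that of Fstl1 (0.0635), and 1 culture left out those of Fxyd6 (without B, C or H: 0.0547 to 0.0629), Egln3 (without A, B, D, E, G or I: 0.0526 to 0.0797), Ssc5d (without C or E: 0.0506 to 0.0628), Fstl1 (without B, C, D, E, F, J or L: 0.0562 to 0.0825) and Sox11 (without B, C, D or E: 0.0548 to 0.0646), all as adjusted p.

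Responses of the same sign in both states were taken at a bound of 0.7. In 183 genes the Rb effect was at least 0.7 in each state with the same sign, 119 higher and 64 lower, and 19 of the 183 had a called difference. Ccne2, cyclin E2, gave 1750.3, 1651 and 2044 in Rb-flox myotubes, against 239.7, 278 and 172 in wild-type myotubes, and 1836, 2955 and 1855 in Rb-null myoblasts, against 560.0, 645 and 687 in wild-type myoblasts. The groups did not overlap in either state, with Rb effects of 2.44 in myotubes and 1.59 in myoblasts (adjusted p = 0.0952 for the second), and the difference of 0.85 had an interval of 0.11 to 1.58. Lhx2, a LIM homeobox transcription factor, gave 648, 652 and 479 in Rb-flox myotubes, against 35.3, 45.1 and 86.0 in wild-type myotubes, and 523, 906 and 502 in Rb-null myoblasts, against 149, 66.3 and 154 in wild-type myoblasts, with a difference of 0.37 and an interval of -0.60 to 1.33. Wdr76, a WD repeat protein, had Rb effects of 2.49 and 1.56, and its difference of 0.93 was called without culture B (1.44, adjusted p = 0.0335).

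By the smaller of the 2 effects, Meg3 led the genes that were lower in both states. Meg3, an imprinted long noncoding RNA, had Rb effects of -3.34 in myotubes and -1.83 in myoblasts. It gave 109, 717 and 106 in Rb-flox myotubes, against 5993, 3702 and 1975 in wild-type myotubes, and 173, 47.7 and 141 in Rb-null myoblasts, against 2606, 261 and 489.6 in wild-type myoblasts, and the difference of -1.50 spanned -3.56 to 0.56. Nmrk2, a muscle kinase of nicotinamide riboside, had -1.72 and -1.75, with a difference of 0.03 and an interval of -1.50 to 1.55. Prss23, a serine protease, had -2.93 and -1.40, and E430024I08Rik had -2.39 and -1.50. The intervals of Meg3 and Nmrk2 span 3 log2 units or more, so the missed threshold does not show that their effects were equal.

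**Figure D5:**
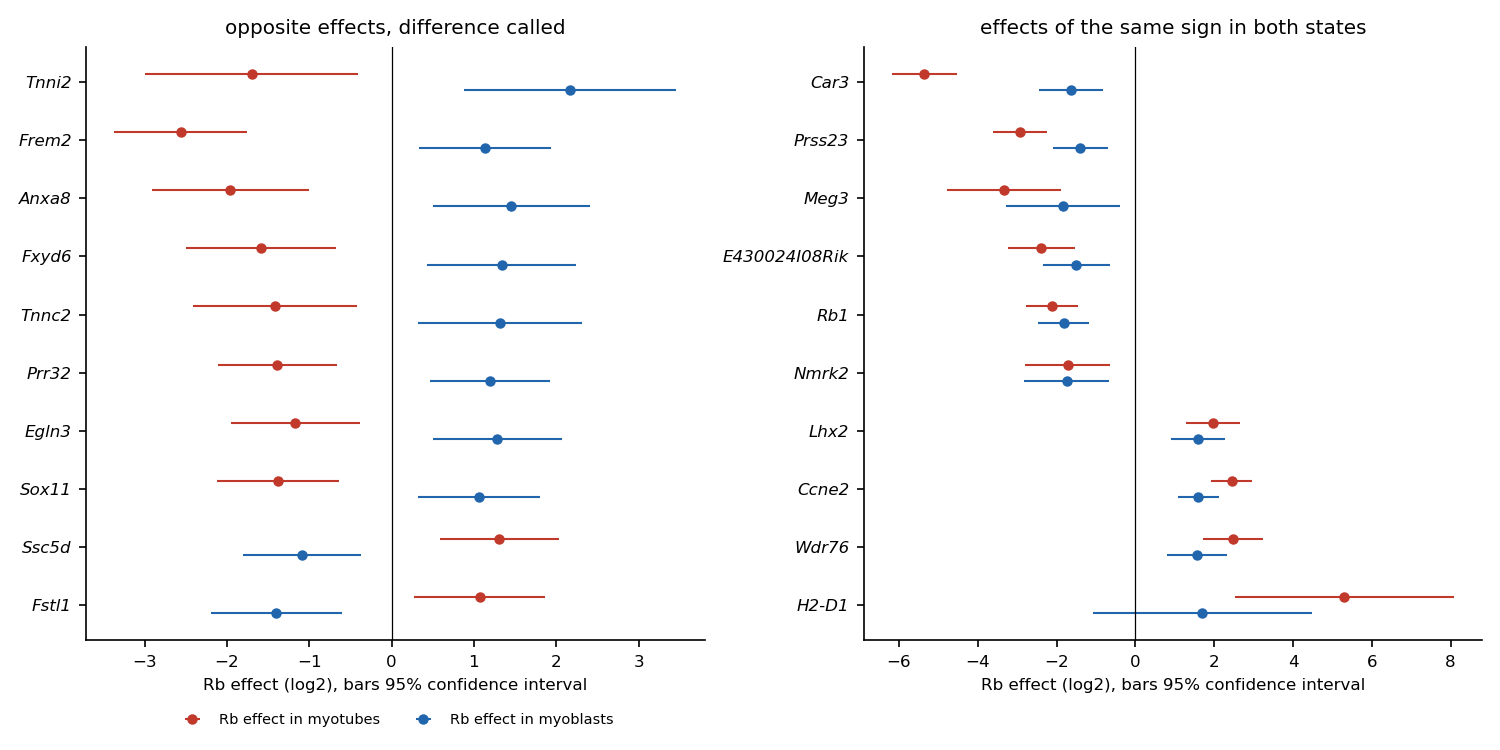
Rb effect in myotubes (red) and in myoblasts (blue) with 95% confidence intervals (horizontal axis, log2) for 10 called genes of opposite effects (left) and 10 genes with effects of the same sign in both states (right). The red and blue intervals stand on either side of 0 on the left and overlap on the right except for Car3 and Prss23.

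The lists not yet described held 1 called gene or none. Notch2, a Notch receptor, was the 1 called of 16 Notch pathway genes, at 1.70 ± 0.35 (SE, adjusted p = 0.0247), and Mest, an imprinted gene, the 1 called of 19 genes of the insulin-like growth factor axis, at 2.02 ± 0.43 (SE, adjusted p = 0.0281). Apaf1, which starts the caspase cascade, was the 1 called of 18 p53 and apoptosis genes, at 1.38 ± 0.32 (SE, adjusted p = 0.0456). None was called among 22 genes of autophagy and atrophy, 25 of ribosome biogenesis, 19 immediate early genes and 17 genes of satellite cells and growth receptors, whose medians lay between -0.08 and 0.44. The calls were lost for Apaf1 with scan day (0.0573) or station (0.0512) as a block, no filter (0.0576) or median centring (0.0821), for Mest with scan day (0.0525) or quantile normalisation (0.0525) and for Notch2 with the mean of its 2 probe sets (0.215), and without 1 culture for Apaf1 (without A, B, C, D, E, F, G, H, J, K or L: 0.0611 to 0.119), Mest (without B, C, D, E or I: 0.0637 to 0.0774) and Notch2 (without A, C, D, E or J: 0.0518 to 0.079), as adjusted p.

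Called genes were found on chromosomes 1 to 19 and X. Chromosome 12, with 13 called higher and 6 lower of 514 tested, had the highest share at 3.70%, and chromosome 13, with 5 higher and none lower of 526, the lowest at 0.951%. Of the 180 called genes with several kept probe sets, all probe sets had the sign of the one used in 145. Of 73 called genes with probe sets on both array types, the other type had the same sign in 58, but its median size was 0.603, against 2.00 for the probe set used. Among genes named above, it gave -0.69 for Car3, 0.07 for Pdia3, 0.26 for Hsp90aa1, 1.10 for Ifi35 and 1.09 for Gpnmb. Values closer to those of the probe set used were 1.78 for Dnmt1, 2.34 for Ccne1, -2.43 for Capn3 and 2.54 for Bub1b.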

How the data were processed

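RNA of 12 cultures was measured on MOE430A and MOE430B arrays. The deposited intensities are probe set signals made with MAS5, per the submitters' processing notes; averaged over probe sets with 2% trimmed at each end, every array comes to about 1500, and detection calls and the MAS5 version are not given in the sources used here. A constant, the 20th percentile of all signals of an array type (130 on MOE430A, 206 on MOE430B), was added before log2, which shrinks differences between dim signals. Of 22690 MOE430A probe sets 20380 were annotated with 1 gene, 691 with several, 1555 with none and 64 were controls; of 22575 on MOE430B the numbers were 14661, 245, 7605 and 64. Symbols follow the platform annotation, updated through gene IDs. Probe sets of 1 gene above the 40th percentile on at least 3 arrays were kept, and a gene was read from 1 of them, preferring those without an _x or _s suffix, then MOE430A, then the highest mean.

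limma 3.58.1 (R 4.3.3) fitted 4 group means per gene over all cultures, with eBayes and a trend, and p-values were adjusted by Benjamini-Hochberg over all genes tested. Intervals are 95% and unadjusted, and the number of arrays limits the precision. The fit was tested on simulated data. The members and the 42 gene lists were chosen with earlier results of these data known. Named genes are the 15 largest called differences in each direction, the 3 largest called members and the 2 members nearest 0 of each list, the 10 strongest opposite and same-sign responses, and 43 genes of a fixed panel; Cdh15, Des, Mylpf and Tnnt3 are markers, and genes near Rb1 and markers below the offset were named after their values were seen. There were 10 alternatives on all cultures, of which the fluidics station was added after seeing the data, and 12 that left out 1 culture.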

Additional observations from a re-analysis of the deposited data

Results flagged for a closer look

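The Rb effect differed between myotubes and myoblasts, by a test of the difference itself in the limma fit, for 217 genes with a more positive effect in myotubes and 107 with a more negative one. Among the called genes whose Rb effects had opposite signs, the differences, myotubes minus myoblasts, were -3.87 for Tnni2, -3.70 for Frem2, -3.42 for Anxa8, -2.92 for Fxyd6, -2.73 for Tnnc2, -2.58 for Prr32, -2.46 for Egln3 and -2.44 for Sox11, and 2.47 for Fstl1 and 2.40 for Ssc5d. In each of these 10 the 2 effects were at least 1 on the log2 scale, but none of the myoblast effects passed its own test. With 3 cultures a group, single cultures were not tested as outliers.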

How the results depend on the processing

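The counts of called differences, 217 higher and 107 lower, became 469 and 261 with array weights, 216 and 74 under a block for scan day, 177 and 160 under one for fluidics station, and lay between 152 and 267 higher and between 80 and 145 lower under the other 7 settings on all cultures. Leaving out 1 culture gave 99 to 237 higher and 40 to 136 lower. The higher count moved by over 1.5 times without C (99), D (124) or E (112), and the lower count without B (64), C (40), D (45), E (44), G (60), H (70) or I (68). With station as a block the Rb effect in myotubes was called for 979 genes, against 1650, and leaving out 1 culture gave 1165 to 1733. The Rb effect in myoblasts, called for 0 genes, was called for 2 with a separate fit per array type, 7 with array weights and 4 with station as a block, and for 0 to 1 without 1 culture. None of the 324 called genes changed sign under any of these alternatives. Of the 80 named genes called, 44 were called under all 22 of them. On MOE430A, station and genotype coincide within myotubes and cannot be told apart there; scan day nearly coincides with state. No paired analysis was possible because each culture has a letter of its own that no other group shares. The cause of the changed counts was not tested, and the fits that left 1 culture out also held fewer cultures. Signals below the offset, as in wild-type myotubes for 33 of the 217, bound the differences only loosely.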

Other observations

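Ribosome biogenesis and sterol synthesis genes changed between states in both genotypes. Of 25 measured ribosome biogenesis genes, 14 were called lower in Rb-flox myotubes than in Rb-null myoblasts, with a median of -0.69, and 12 were called lower in wild-type myotubes than in wild-type myoblasts, with a median of -0.57. Of 15 sterol synthesis genes, 10 were called higher with Rb lost, with a median of 1.44, and 10 in the wild type, with a median of 1.22. No member of either list had a called difference between the Rb effects.

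Cadherin 15 (Cdh15), an adhesion molecule of myoblasts, gave 2118, 3205 and 4011 in Rb-flox myotubes, against 8062, 9294 and 8855 in wild-type myotubes, and 5651, 5381 and 5451 in Rb-null myoblasts, against 7964, 6836 and 8458 in wild-type myoblasts. Every culture that had lost Rb was below every wild-type culture of its state, and the difference of -1.01 missed the threshold (adjusted p = 0.0886).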
